A study of Mus musculus with 4 samples.

Results

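The C-type lectin and Siglec receptor genes are the autosomal protein-coding genes of the mouse whose symbols start with Clec or Siglec, or with Klr followed by a letter and a number. Clec7a and Siglech were left out by the rule. It names 66 genes, of which 64 were measured, among 20219 measured autosomal protein-coding genes in all. The other 2, Klra16 and Klra23, lie on scaffolds outside the assembled chromosomes in the RefSeq table and were not measured. A gene counted as measured when its mm10 span, extended by 2 kb on each side, held 3 or more CpGs and 10 or more reads in each of the 4 libraries.

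Methylation had been read by whole-genome bisulfite sequencing in microglia, the resident macrophages of the brain, taken from the hippocampus. There were 2 libraries of growth-restricted mice (FGR, for fetal growth restriction) and 2 of control mice. Both groups had the genotype Tmem119-tdTomato+/-, in which a red fluorescent reporter is placed at a microglial gene, and both were 3 weeks old. The labels say neither how growth was restricted nor whether a replicate is 1 animal or a pool. The p-values therefore rest on read counts and on the spread of these libraries, moderated over all regions, and that spread may be technical.

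C-type lectins bind sugars or proteins through a fold first described in calcium-dependent sugar receptors. Many sit on macrophages, dendritic cells and neutrophils and signal through adaptors such as DAP12 and the Fc receptor gamma chain. Siglecs bind sialic acid on the body's own cells, and most of them carry inhibitory motifs that recruit phosphatases. The Klr genes encode lectin-like receptors of natural killer (NK) cells. They include the Ly49 receptors (Klra) for MHC class I, the NKR-P1 receptors (Klrb), whose ligands are encoded by the neighbouring Clec2 genes, and the NKG2 and CD94 receptors (Klrc, Klrk, Klrd). In the mouse most of these genes lie in the NK gene complex on chromosome 6. Methylation of cytosines near a gene's start is commonly low where the gene is in use and high where it is silent, although CpG-poor starts follow this less closely. Because DNA from all cells of a sample is pooled, a level between 0 and 100% cannot tell a mixture of cells from partial methylation in each cell.

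Of the 64 genes, 51 lay on chromosome 6 and 37 in the NK gene complex. By role they were 16 myeloid and other immune-cell C-type lectins, 5 Siglecs, 7 Clec2 ligands, 5 NKR-P1 receptors, 5 NKG2 and CD94 receptors, 6 other Klr genes, 11 Ly49 receptors and 9 C-type lectins of other tissues. The FGR libraries listed 7615146 and 13578464 cytosines and the control libraries 9335713 and 10023353, none with fewer than 5 reads. Extended spans of 6 of the 64 overlap that of another and share CpGs with it. A gene rested on 12 to 842 CpGs and on 77 to 6282 reads in a library. The libraries listed largely different CpGs: of 8625 CpGs listed in any library within these genes, 782, or 9.07%, were listed in all 4. The check of the labelled cell type came from 12 microglial marker genes, of which 6 had a measured start. P2ry12, Cx3cr1, Sall1 and Ptprc had start levels of at most 10.3% in every library, and the median over the 6 was 4.4% and 6.28% in the FGR libraries, against 4.82% and 5.32% in the control libraries. Aif1 and Itgam, which microglia also express, had higher starts, with means of 83.4% and 65.0%. Of the NK and T cell markers, 9 had a measured start, and their median was 68.8% and 76.9% in the FGR libraries, against 74.5% and 75.3% in the control libraries. The lowest of these 9 was Eomes at 2.55%. Low starts were not limited to microglial genes: the median was 10.1% over 3 astrocyte genes, and Syt1 of neurons had 2.06%, Olig2 of oligodendrocytes 6.11%, Kdr of endothelial cells 10.3% and Mrc1 of border macrophages 7.83%.

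The promoters shown here are those of the 6 lowest and the 3 highest start windows of these genes, without Siglece, whose promoter held no listed CpG. Each is the RefSeq sequence of GRCm38.p6, the assembly of mm10, from 250 bases before to 50 bases after the gene start, 5′ to 3′ on the strand of the gene, and the capitals mark CpGs. Clec5a (chr6:40585756-40586055, minus strand), Clec4a3 (chr6:122952265-122952564, plus strand), Clec12a (chr6:129349994-129350293, plus strand), Clec14a (chr12:58269209-58269508, minus strand) and Clec16a (chr16:10545089-10545388, plus strand) had low starts. Clec2g (chr6:128934131-128934430, plus strand), Clec9a (chr6:129408612-129408911, plus strand) and Klrb1c (chr6:128788592-128788891, minus strand) had high starts.
Clec5a: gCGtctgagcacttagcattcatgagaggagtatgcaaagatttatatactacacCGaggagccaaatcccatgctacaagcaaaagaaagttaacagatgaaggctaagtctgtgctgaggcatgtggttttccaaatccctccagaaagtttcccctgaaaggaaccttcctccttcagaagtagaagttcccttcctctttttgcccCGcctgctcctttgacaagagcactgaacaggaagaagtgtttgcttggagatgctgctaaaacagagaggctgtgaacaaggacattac
Clec4a3: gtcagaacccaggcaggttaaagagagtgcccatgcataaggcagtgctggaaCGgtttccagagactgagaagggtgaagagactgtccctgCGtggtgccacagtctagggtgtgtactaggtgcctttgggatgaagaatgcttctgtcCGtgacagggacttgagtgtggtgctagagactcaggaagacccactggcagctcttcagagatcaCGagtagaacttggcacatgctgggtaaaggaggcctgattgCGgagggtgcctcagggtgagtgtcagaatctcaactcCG
Clec12a: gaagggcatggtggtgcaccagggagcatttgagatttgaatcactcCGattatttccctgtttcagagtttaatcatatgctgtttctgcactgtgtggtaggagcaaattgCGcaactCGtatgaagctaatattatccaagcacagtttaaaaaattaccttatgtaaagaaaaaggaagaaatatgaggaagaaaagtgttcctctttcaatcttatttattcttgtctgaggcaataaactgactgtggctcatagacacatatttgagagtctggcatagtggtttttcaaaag
Clec14a: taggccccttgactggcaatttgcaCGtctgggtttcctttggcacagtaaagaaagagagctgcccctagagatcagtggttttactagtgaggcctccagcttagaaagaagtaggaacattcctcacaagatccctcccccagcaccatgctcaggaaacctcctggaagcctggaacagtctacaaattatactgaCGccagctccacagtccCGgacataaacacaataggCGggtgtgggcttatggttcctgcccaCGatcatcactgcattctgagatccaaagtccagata
Clec16a: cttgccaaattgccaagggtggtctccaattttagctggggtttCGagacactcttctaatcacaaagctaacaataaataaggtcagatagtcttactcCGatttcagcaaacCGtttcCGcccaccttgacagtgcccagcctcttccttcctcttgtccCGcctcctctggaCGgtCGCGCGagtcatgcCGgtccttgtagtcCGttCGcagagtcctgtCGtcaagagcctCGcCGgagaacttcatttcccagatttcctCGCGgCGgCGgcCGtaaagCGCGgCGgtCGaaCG
Clec2g: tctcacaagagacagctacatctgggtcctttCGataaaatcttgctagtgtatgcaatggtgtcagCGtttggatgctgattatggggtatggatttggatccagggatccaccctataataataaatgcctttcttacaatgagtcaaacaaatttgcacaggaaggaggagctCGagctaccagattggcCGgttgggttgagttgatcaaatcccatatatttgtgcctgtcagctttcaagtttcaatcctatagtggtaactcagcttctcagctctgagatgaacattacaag
Clec9a: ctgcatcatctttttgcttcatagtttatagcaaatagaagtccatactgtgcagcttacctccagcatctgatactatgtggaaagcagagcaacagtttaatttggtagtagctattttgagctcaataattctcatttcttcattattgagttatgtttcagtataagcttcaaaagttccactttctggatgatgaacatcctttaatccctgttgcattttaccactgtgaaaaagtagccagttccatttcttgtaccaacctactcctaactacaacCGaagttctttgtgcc
Klrb1c: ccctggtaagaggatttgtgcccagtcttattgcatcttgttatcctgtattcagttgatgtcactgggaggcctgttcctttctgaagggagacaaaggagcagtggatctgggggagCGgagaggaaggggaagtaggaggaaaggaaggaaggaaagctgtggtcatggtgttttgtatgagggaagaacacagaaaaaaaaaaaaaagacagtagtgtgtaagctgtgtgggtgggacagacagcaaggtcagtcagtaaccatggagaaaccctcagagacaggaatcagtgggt

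These promoters show how few CpGs most of the genes carry. Clec5a has 3 CpGs in its 300 bases, Clec4a3 6, Clec12a 3, Clec14a 5, Clec2g 4, Clec9a 1 and Klrb1c 1, while Clec16a has 25. Of 52 of the genes with a RefSeq promoter, 45, or 86.5%, had 5 or fewer CpGs, against 31.5% of 16457 promoters of all genes. The median was 2 CpGs for these genes and 14 for all genes, and the highest count was 29, in Clec2l. The sequence GAGGAA, one form of the motif of ETS factors such as the myeloid regulator PU.1, was searched on both strands, as GAGGAA or TTCCTC. It occurred in 31 of 52 of these promoters, or 59.6%, against 27.2% of all promoters. Among promoters with 5 or fewer CpGs it occurred in 60% of these genes, against 31.9% of 5190 promoters of all genes. Of the promoters shown, Clec5a, Clec12a, Clec16a and Klrb1c hold 2 matches each, Clec14a holds 1, and Clec4a3, Clec2g and Clec9a hold 0. A match of letters is not a binding site, and several of these genes are close copies of each other.

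The low start windows differed in how their promoters read, and so did the high ones. Each CpG listed in the promoter of Clec4a3, an immunoreceptor of the DCIR group, read 0% in every library that listed it, on at most 15 reads a CpG in the FGR libraries together and 7 in the control libraries. The 5 listed CpGs of the Clec16a promoter also read 0%. Clec16a carries the family symbol but encodes an intracellular protein of the endosomal membrane. In the promoter of Clec5a, a myeloid receptor that pairs with DAP12, the CpG at position -40 from the start had 0 methylated of 5 reads in FGR replicate 2, against 1 of 13 in control replicate 1, and the CpGs at -195 and -249 had 0 of 9 and 0 of 7 in FGR replicate 2. Clec12a, an inhibitory receptor of myeloid cells, was uneven within its 300 bases. Its CpG at -203 had 0 methylated of 13 reads in the FGR libraries, against 1 of 18 in the control libraries. At -137 the counts were 15 of 17 reads in FGR, against 17 of 21 in control. At -130, next to it, they were 8 of 18 in FGR, against 4 of 17 in control. All 4 libraries listed these 3 CpGs, and the order of low, high and intermediate held in both groups. In the promoter of Clec14a, an endothelial membrane protein, each of the 5 CpGs had methylated reads, on few reads. At 13 bases after the start the counts were 3 of 10 reads in FGR, against 2 of 6 in control. At -14 they were 3 of 5 in FGR, against 4 of 6 in control, and at -50 3 of 5, against 5 of 5. At -225 they were 1 of 5 in FGR, against 1 of 6 in control, and at -33 1 of 5 in FGR replicate 1 alone. Further into the gene, the CpG at chr12:58269175 read 0% in all 4 libraries. The promoters of Clec2g, a Clec2 family gene of the NK gene complex, and Clec9a, a receptor for dead cells on dendritic cells, were methylated: the single Clec9a CpG, at 34 bases after the start, had 9 methylated of 11 reads in FGR, against 12 of 13 in control. In Clec2g 3 of the 4 CpGs read 100% wherever listed, and the one at -183 had 2 of 5 reads in FGR, against 11 of 11 in control. The single promoter CpG of Klrb1c, which encodes the NK1.1 antigen, was listed only in control replicate 2, with 1 methylated of 5 reads, although its start window was among the highest. The groups were not tested at single promoter CpGs.

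Start windows, 1 kb to each side of the gene start, were measured for 35 of these genes and for 11658 genes in all. Their median level was 66.3%, against 29.3% over all genes, and 8 of the 35, or 22.9%, had a mean under 50%, against 66.7% of all start windows. Among genes with 5 or fewer promoter CpGs the medians were closer, with 67.0% for 28 of these genes and 70.8% for 3042 genes in all. Across all 11658 genes the Spearman correlation of promoter CpG count with start level was -0.65, and across the 35 it was -0.16, given as a description since genes share libraries and neighbourhood. The 6 lowest windows were those of Clec16a, Clec5a, Siglece, Clec4a3, Clec14a and Clec12a. Clec5a had 8.33% and 41.6% in the FGR libraries, against 18.9% and 33.3% in the control libraries. Clec4a3 had 28.8% and 36.2% in FGR, against 50.6% and 27.5% in control. The libraries of one group differed by more than the groups did, and the groups overlapped for these genes and for the other 4. Siglece, an inhibitory Siglec of neutrophils and macrophages, had 24.0% and 49.0% in FGR, against 30.4% and 35.4% in control. The RefSeq start used for Siglece lies inside its measured span and not at the end of it. Clec14a had 41.1% and 45.5% in FGR, against 10.7% and 54.5% in control. The replicates of Clec14a lay far apart in control. The 3 highest windows were those of Clec2g (94.4% and 94.5% in FGR, 93.2% and 100% in control), Clec9a (86.8% and 96.7% in FGR, 84.2% and 94.4% in control) and Klrb1c (83.3% and 86.7% in FGR, 100% and 76.0% in control). These 3 stood above 75% in every library.

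**Figure D1:**
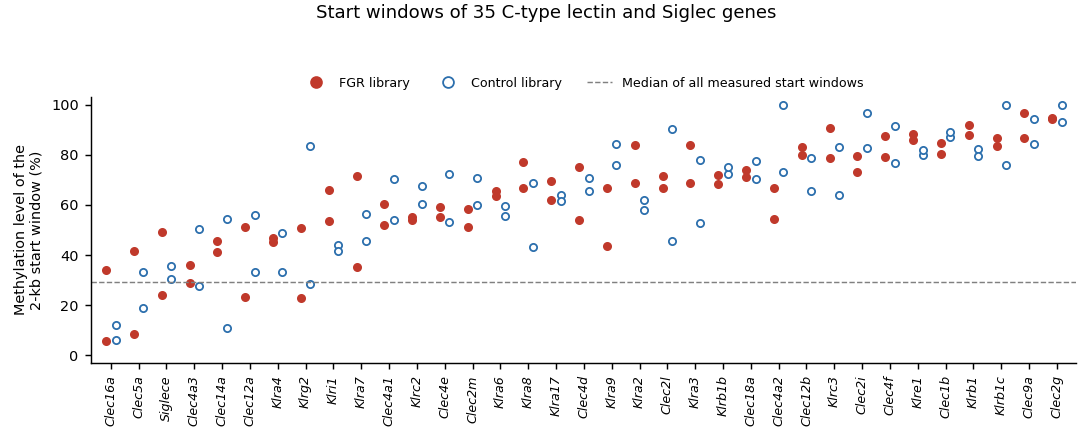
Methylation level (percent, vertical axis) of the 2-kb window around the start of 35 genes, ordered by the mean of the 4 libraries. Filled points are the 2 FGR libraries and open points the 2 control libraries; the dashed line is the median of all measured start windows, 29.3%. Clec16a is lowest at 14.5% and Clec2g highest at 95.5%, and the 2 groups overlap for most genes.

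Pooled over genes, the myeloid set was lower at its starts than the other sets, and its members differed. Of its 11 genes with a measured start window 4 had a mean under 50% and 4, among them Clec9a and Clec1b, were above the 70.8% median of CpG-poor starts. In the first 500 bases after the start the 15 myeloid C-type lectins and Siglecs with a RefSeq start pooled to 33.8% and 43.8% in the FGR libraries, against 38.9% and 41.5% in the control libraries. The 30 NK receptor and Clec2 genes pooled to 64.3% and 72.1% in FGR, against 66.7% and 68.4% in control. For all 5190 genes with 5 or fewer promoter CpGs the same bin had 62.2% and 64.6% in FGR, against 63.9% and 65.0% in control. In this bin the myeloid set was below the other sets in each of the 4 libraries. In the 500 bases before the start the myeloid set had 40% and 41.9% in FGR, against 54.8% and 57.6% in control, on 17 and 42 CpGs in FGR, against 34 and 26 in control. There the NK set had 63% and 61.4% in FGR, against 55.4% and 66.9% in control, and all CpG-poor genes had 63.4% and 65.0% in FGR, against 65.0% and 65.6% in control. In the next 500 bases after the start the myeloid set was back at 66.4% and 75.3% in FGR, against 77.2% and 78.0% in control. Each 500-base bin of the myeloid set rests on few CpGs, 35 and 46 in the FGR libraries, against 31 and 29 in the control libraries, in the lowest bin, and no test of the difference between sets was made, since the members share libraries and neighbours.

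**Figure D2:**
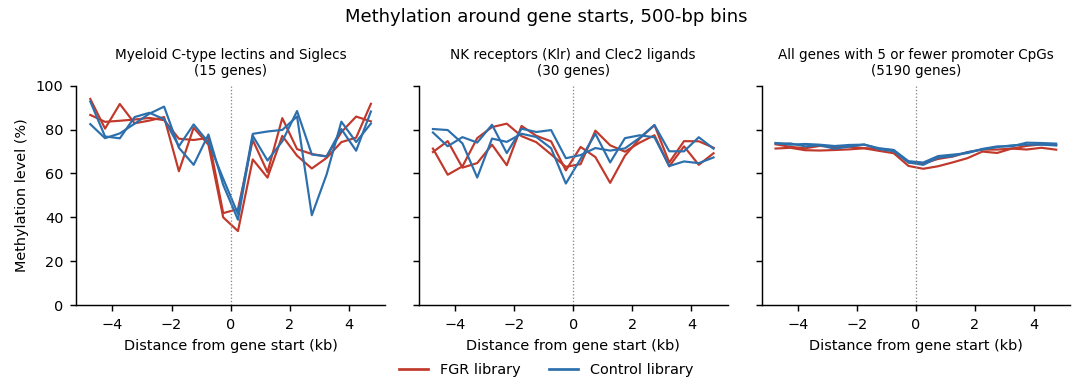
Pooled methylation level (percent) in 500-bp bins against distance from the gene start (kb, positive into the gene), 1 line per library, for 15 myeloid C-type lectins and Siglecs, 30 NK receptor and Clec2 genes, and 5190 genes with 5 or fewer promoter CpGs. The myeloid genes fall to 33.8% in the bin after the start in FGR replicate 1, while the other sets stay above 55%.

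Over whole genes the 64 were mostly methylated, with a median level of 77.2% and a range from 55.9% in Clec11a to 92.1% in Clec2e, against a median of 74.0% over all genes. By role the medians were 77.8% for the myeloid C-type lectins, 73.4% for the Siglecs, 79.9% for the Clec2 ligands, 82.5% for NKR-P1, 79.4% for NKG2 and CD94, 77.9% for the other Klr genes, 65.6% for Ly49 and 72.4% for the lectins of other tissues. The highest were Clec2e (93.1% and 92.5% in FGR, 92.4% and 90.3% in control), Clec2g (89.1% and 90.5% in FGR, 90.9% and 90.7% in control) and Klrb1c (89.3% and 89.5% in FGR, 94.1% and 87.4% in control). All 3 lie in the part of the NK gene complex that holds the NKR-P1 and Clec2 genes. The range within a role differed between roles. Among the myeloid lectins Clec5a had a mean of 61.7% and Clec4a2, an inhibitory DCIR receptor, 83.0%. Among the Siglecs Siglecf, known from eosinophils, had 66.2% and Siglecg, a B cell inhibitor, 85.5%. Clec2i had 68.0% against 92.1% in Clec2e, Klrb1 74.6% against 90.1% in Klrb1c, and Clec11a 55.9% against 84.8% in Clec2l. The NKG2 and CD94 genes were the most alike, from 76.1% in Klrc2, an activating NKG2 chain, to 82.0% in Klrc1, the inhibitory NKG2A. The other Klr genes ran from 72.0% in Klre1 to 85.3% in Klri2, both partners in heterodimeric NK receptors.

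**Figure D3:**
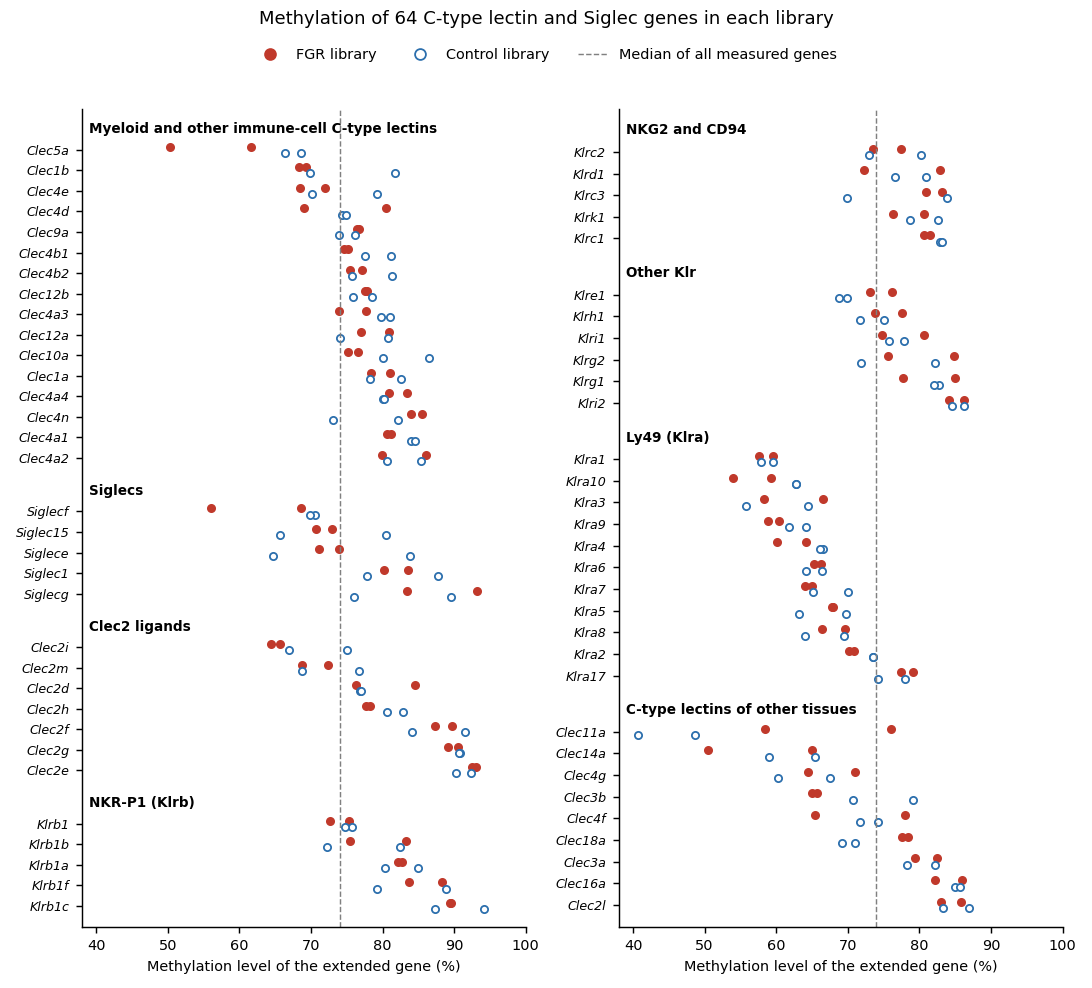
Methylation level (percent) of each of the 64 genes with 2 kb on each side, grouped by role; filled points are FGR libraries, open points control libraries, and the dashed line is the median of all measured genes, 74.0%. The Ly49 genes lie left of that line except Klra17, and the FGR and control points are apart for 24 of the 64 genes, or 37.5%, against 36.6% of all genes.

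The Ly49 receptors stood apart in both groups. Their median over 11 genes was 65.0% and 65.3% in the FGR libraries, against 64.2% and 66.4% in the control libraries, and 10 of the 11 had a mean under the median of all genes, as had 14 of the other 53. Klra1, which encodes Ly49A, had 57.5% and 59.6% in FGR, against 57.9% and 59.5% in control. Klra10 had 53.9% and 59.2% in FGR, against 62.8% and 62.8% in control, and Klra3, which encodes Ly49C, had 58.3% and 66.5% in FGR, against 64.5% and 55.8% in control. These 3 are the lowest of the group in all. Klra17 and Klra2, which encode Ly49Q and Ly49B and are known from myeloid cells, were the highest: Klra17 had 79.2% and 77.4% in FGR, against 74.3% and 78.0% in control, and Klra2 had 70.8% and 70.2% in FGR, against 73.5% and 73.6% in control. On the CpGs listed in all 4 libraries the Ly49 median was 67.4%, and that of all genes 81.0%. Intermediate CpGs made up most of the Ly49 genes. Of 161 such CpGs in Ly49 genes 102, or 63.4%, had a level of 20 to 80% and 2, or 1.24%, a level under 20%, while of 1418485 autosomal CpGs 39.9% were intermediate and 3.20% under 20%. In the Clec2 genes 14.3% of 98 were intermediate and 80.6% above 80%. The Ly49 genes are near-identical copies, so that reads of one can be placed on another or dropped. The mean number of reads per listed CpG was 7.76 in the median Ly49 gene, against 7.09 over all genes. This depth was not particular to Ly49: the median was 7.75 in the NKG2 and CD94 genes and 7.63 in the Clec2 ligands. The part of read placement in the low level was not tested.

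The level was as low between the Ly49 genes as inside them. From Klra17 to Klra1 (chr6:129831154-130386874) the pooled level was 66.7% and 67.9% in the FGR libraries, against 67.9% and 68.7% in the control libraries. Inside the Ly49 genes of this stretch it averaged 67.2% in FGR and 67.3% in control, and between them 67.3% in FGR and 68.9% in control. The stretch from Klre1 to Klrh1 just before it (chr6:129559365-129784270) had 77.5% and 77.9% in FGR, against 77.2% and 77.8% in control. Further back, Clec12a to Clec1a had 77.5% and 79.2% in FGR, against 79.3% and 77.2% in control, and Klrb1a to Clec2d had 76.3% and 78.5% in FGR, against 78.3% and 81.2% in control. The low level went on beyond the last Ly49 gene of the cluster: the 812.1 kb between Klra1 and Klra2 had 60.7% and 62.2% in FGR, against 63.4% and 62.4% in control, and the 500 kb beyond Klra2 had 68.9% and 69.1% in FGR, against 69.7% and 69.3% in control. In windows of 25 kb, 18 of 23 from Klra17 to Klra1 and 46 of 60 beyond it had means under 70% in both groups, against 3 of 49 from Klrb1a to Klra17. The lowest window of all, at 41.0% in FGR and 45.2% in control, nevertheless lay in the stretch before Klra17. The windows over Klra17 itself had 70.9% to 79.9% in the 4 libraries, like those before it. Of the windows over Klra5 the first had 64.1% and 58.6% in FGR, against 63.4% and 67.6% in control, and the next 80.5% and 84.7% in FGR, against 82.9% and 81.9% in control. Most windows were lower from there on, so the change in level lay inside the Ly49 cluster and not at its edge. Outside the NK gene complex the Dectin-2 cluster on the same chromosome, from Clec4a1 to Clec4e, had 82.0% and 79.5% in FGR, against 80.4% and 80.6% in control.

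**Figure D4:**
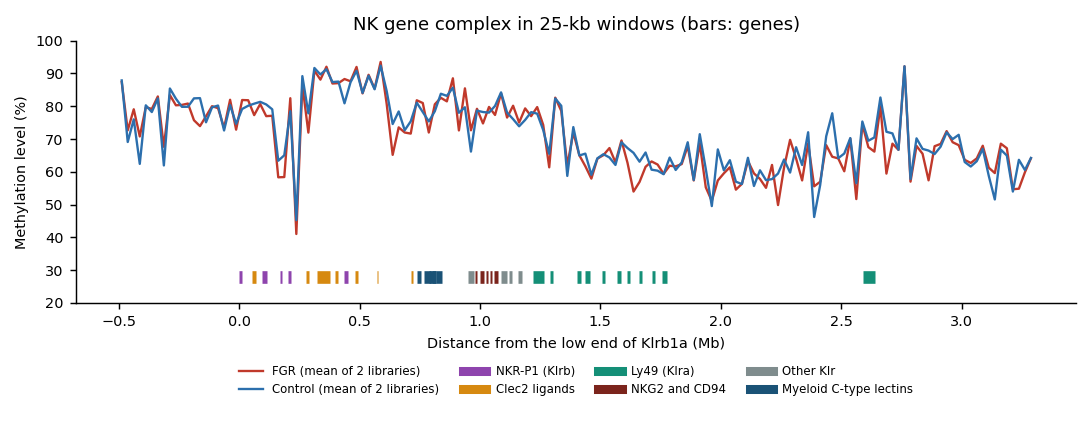
Mean methylation level (percent) of the 2 FGR and the 2 control libraries in 25-kb windows across the NK gene complex, against distance from Klrb1a (Mb); bars mark the genes by role. The median window is 80.7% in FGR and 79.7% in control before Klra17, and 62.9% in FGR and 65.4% in control from Klra17 to Klra1.

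Between FGR and control libraries no gene passed the test. The quasi-binomial test on methylated and unmethylated reads, with overdispersion moderated by limma's squeezeVar and Benjamini-Hochberg adjustment over all 20219 genes, called 0 of 64 of these genes, and 0.0% of all genes. A call needed an adjusted p under 0.05 together with 10 points or more between the group means. At an unadjusted p under 0.05 there was 1 of the 64, against 6.31% of all genes, and limma on log ratios also called 0 genes, while 1263 of all genes had an unadjusted p under 0.05 there. The median difference was -0.83 points over the 64 genes and -1.26 over all genes, and 38 of 64 had the lower mean in FGR, against 63.8% of all genes. Both FGR libraries lay below both control libraries in 17 of the 64, against 26.2% of all genes, and above both in 7, against 10.4% of all genes. Beyond 10 points lay 3.13% of the 64, against 12.6% of all genes. These shares are near or below those of all genes. Pooled over all listed CpGs of the 64 genes the level was 77.2% ± 0.457 in FGR and 77.7% ± 0.752 in control (SD, n = 2 each).

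The smallest p belonged to Clec11a, which encodes a secreted growth factor of bone and blood cell precursors. It had 76.0% and 58.5% in the FGR libraries, against 48.7% and 40.7% in the control libraries. Both FGR libraries were above both control libraries, and the difference was 22.6 points (95% interval 4.07 to 41.1, p = 0.0367, adjusted p = 0.772, quasi-binomial test). It rests on 23 and 41 CpGs in FGR, against 38 and 66 in control, with 5 in all 4, where the difference was 10.2 points. It was 13.8 points without FGR replicate 1, and without the 2-kb flanks it turned to -9.12 points. Clec18a had 78.5% and 77.5% in FGR, against 69.2% and 71.0% in control. Its groups did not overlap, with a difference of 7.88 points (adjusted p = 0.790, quasi-binomial test), which was 2.68 points on shared CpGs, 1.60 with a 5-kb flank and 0.79 with 10 or more reads a CpG. Clec4n, which encodes the fungal receptor Dectin-2, had 85.6% and 83.9% in FGR, against 73.0% and 82.2% in control, also with no overlap (7.16 points, adjusted p = 0.899), and its difference was 2.59 points without control replicate 1 and 2.38 on shared CpGs. Siglecg, Klre1 and Klrc3 followed among the higher genes with differences of 5.55, 5.28 and 5.23 points, and of these only Klre1 had no overlap between groups. On shared CpGs Siglecg turned to -3.42 and Klrc3 to -2.73 points, and without control replicate 1 to -1.20 and -1.74 points.

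Of the genes with lower levels in FGR, Clec5a had 50.3% and 61.7% in the FGR libraries, against 66.4% and 68.6% in the control libraries. The groups did not overlap, and the difference was -11.5 points (95% interval -26.6 to 3.56, adjusted p = 0.869, quasi-binomial test). It was -5.81 points without FGR replicate 1, and 4.70 points on the 6 CpGs listed in all 4 libraries. Clec3b, which encodes the plasminogen-binding protein tetranectin, had 65.7% and 65.0% in FGR, against 79.1% and 70.7% in control (-9.54 points, adjusted p = 0.876). Clec10a, a galactose-type lectin of macrophages, had 75.1% and 76.5% in FGR, against 86.5% and 80.1% in control (-7.46 points, adjusted p = 0.895). Neither gene's groups overlapped. Clec3b turned to 5.67 points on its 3 shared CpGs and was -5.33 points without control replicate 1, where Clec10a was -4.27 points. Clec10a had 0 CpGs listed in all 4 libraries, so its difference could not be read on shared CpGs. Klra2, Clec4b1 and Clec1b, the platelet receptor for podoplanin, had differences of -3.04, -4.50 and -6.98 points, with both FGR libraries below both controls in each. Clec1b was -1.06 points without control replicate 1, and Clec4b1 -2.72 points without control replicate 2. By role the median differences ran from -1.49 points in the myeloid lectins, 10 of 16 of them lower in FGR, to 1.64 points in the other Klr genes, 2 of 6 of them lower.

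The differences were often not the same on shared CpGs, of which the median gene had 10. Whether this came from the CpGs listed or from their smaller number was not tested. On the CpGs listed in all 4 libraries the median difference was 0.03 points over 63 genes, with 31 lower in FGR, and -0.30 points over all genes, of which 54.2% were lower. For 26 of the 63 genes the sign turned between all listed and shared CpGs, and the Spearman correlation of the 2 differences was 0.23 across genes. On shared CpGs 0 of 63 genes were called by the quasi-binomial test, against 0.012% of all genes (0.00601% higher in FGR and 0.00601% lower), and 5 of 63 had an unadjusted p under 0.05, against 5.81% of all genes. Both FGR libraries lay below both control libraries in 12 of the 63, against 19.0% of all genes, and above in 10, against 14.1%. The pooled level of the 782 shared CpGs was 78.5% and 78.8% in FGR, against 78.7% and 78.8% in control, a difference of -0.15 points, where all shared autosomal CpGs differed by -0.39 points.

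**Figure D5:**
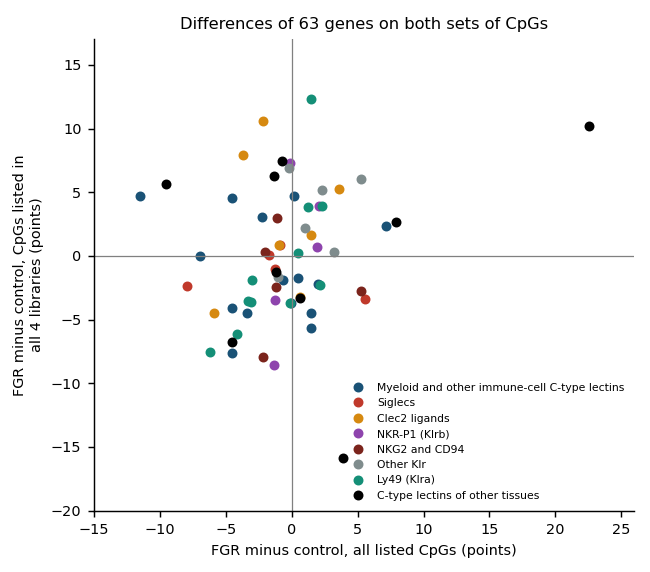
Difference in methylation level, FGR minus control in percentage points, of 63 genes on all listed CpGs (horizontal axis) and on CpGs listed in all 4 libraries (vertical axis), coloured by role. The 26 genes in the upper left and lower right fields change sign, and Clec11a lies farthest right at 22.6 and 10.2 points.

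At the starts the quasi-binomial test called 0 of 35 genes, against 0.0% of 11658 start windows, and limma also called 0 start windows, while 628 of them had an unadjusted p under 0.05. None of the 35 had an unadjusted p under 0.05 by the quasi-binomial test, against 4.79% of all start windows. The mean was lower in FGR for 18 of the 35, against 54.0% of all, both FGR libraries lay below both control libraries in 7, against 19.4%, and above in 6, against 14.8%. The smallest p was that of Clec4a2, with 66.7% and 54.3% in FGR, against 100% and 73.2% in control, a difference of -26.1 points with no overlap (p = 0.0764, adjusted p = 1.0, quasi-binomial test with limma's squeezeVar). Klra9 (-24.8 points) and Clec2i (-13.3 points) followed among the lower windows, and Klra2 (16.2 points), Klri1 (16.8 points) and Klrb1 (9.11 points) among the higher ones. None of these 6 overlapped between groups. With 1 library left out Clec4a2 ranged from -39.5 to -12.7 points, its smallest without control replicate 1. Klra9 was -13.4 points without FGR replicate 1, Clec2i -6.39 without control replicate 1, and Klra2 8.59 and Klri1 10.6 without FGR replicate 2. Of the 10 myeloid windows 8 were lower in FGR and of the 8 Ly49 windows 7 were higher, with median differences of -5.52 and 5.79 points. Most of these windows overlapped between groups. Both FGR libraries lay below both controls in 2 myeloid and 1 Ly49 windows, and above in 1 and 2. Lower in FGR were also 3 of 3 Clec2, 2 of 3 NKR-P1, 1 of 2 NKG2 and CD94, 1 of 3 other Klr, 2 of 5 other-tissue and 0 of 1 Siglec windows. The counts by role were not tested. On shared CpGs 6 of 12 measured windows were lower in FGR.

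Windows of 1 kb placed differences and low sites within the genes. There were 278 such tiles in 62 of the genes among 550538, and 18 of them, or 6.47%, had a level under 50%, against 6.15% of all tiles. The 5 genes with the lowest tiles were Clec16a, Clec5a, Clec2i, Clec4a3 and the overlapping pair Clec1b and Clec12b. The tile over the start of Clec16a (chr16:10545001-10546000) had 1.89% and 0% in FGR, against 0% and 1.14% in control. Clec5a held 2 low tiles, one over its start (chr6:40585001-40586000) with 8.33% and 31.4% in FGR, against 3.23% and 21.2% in control, and a lower one (chr6:40576001-40577000), with its centre 9305 bases into the gene, with 9.09% and 4.65% in FGR, against 7.14% and 6.90% in control. The second tile was low in all 4 libraries on 3 to 5 CpGs each. Clec2i, whose start window had a mean of 83.0%, had 3.57% and 16.9% in FGR, against 0% and 16.7% in control, in the tile chr6:128889001-128890000, centred 1913 bases after its start. Within Clec1b the tile chr6:129400001-129401000, centred 3203 bases after the start, had 20.7% and 20.2% in FGR, against 34.5% and 18.0% in control. This tile also lies inside the gene span of Clec12b. Its CpGs at 129400206 and 129400211 read 0% in all 4 libraries. Of the 782 CpGs shared by all libraries 30 had a pooled level under 20%, or 3.84%, against 3.20% of all shared autosomal CpGs. Of these, 11 of 165 lay in myeloid lectins, among them 3 just inside the start of Clec5a, and 0 of 36 in Siglecs.

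No tile of these genes was called by the quasi-binomial test, against 0.00509% of all tiles (0.00127% higher in FGR and 0.00381% lower), and 9 of the 278, or 3.24%, had an unadjusted p under 0.05, against 4.52% of all. limma called 0 tiles, with 17 of the 278, or 6.12%, at an unadjusted p under 0.05, against 4.66% of all tiles. Both FGR libraries lay below both control libraries in 50 of the tiles, against 17.7% of all, and above in 37, against 15.3%. The smallest p was in Clec3b (chr9:123156001-123157000), with 56.4% and 51.1% in FGR, against 90.5% and 84.1% in control. The groups were apart, by -33.5 points (95% interval -49.1 to -18.0, p = 0.000928, adjusted p = 0.422, quasi-binomial test with limma's squeezeVar). No CpG of this tile was listed in all 4 libraries. Over the 11 CpGs listed in at least 1 library of each group the pooled levels were 63.5% in FGR and 86.9% in control. Next came a tile inside both Clec9a and Clec12b (chr6:129410001-129411000), with 77.8% and 88.9% in FGR, against 100% and 100% in control. After it came one of Clec10a (chr11:70172001-70173000), with 65.4% and 62.5% in FGR, against 95.5% and 85.5% in control. In Klrg1, a receptor of differentiated NK and T cells, a tile (chr6:122271001-122272000) had 63.3% and 79.2% in FGR, against 93.2% and 95% in control. All 3 had no overlap, with adjusted p from 0.814 to 0.934 in the quasi-binomial test. The smallest p with higher levels in FGR were in tiles of Clec4a3 (18.5 points), Clec16a (18.0 points), Clec18a (19.1 points) and Clec2l (10.6 points), with an adjusted p of 1.0 for each. The groups of the Clec2l tile overlapped and those of the other 3 did not. With 1 library left out these 4 kept their direction, and the Clec2l tile was 1.41 points without FGR replicate 2.

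Single CpGs with 10 or more reads in every library numbered 19589, of which 3 lay in these genes, in Clec4n, Klra2 and Klra1. None was called by the quasi-binomial test, against 0.0% of all, and none of the 3 had an unadjusted p under 0.05, against 4.72% of all; limma also called 0, while 955 had an unadjusted p under 0.05. The Clec4n CpG had 90% and 92.3% in FGR, against 81.2% and 84.6% in control, on 10 to 16 reads. With 5 reads as the minimum, 782 CpGs of these genes were tested and 30 had an unadjusted p under 0.05, or 3.84%, against 3.78% of 1418485 CpGs, with 0 called.

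The partners of these receptors were read from lists of named genes. Of 20 adaptor and signalling genes 20 were measured, with a median difference of -0.04 points and 10 lower in FGR; 0 were called and 0 had an unadjusted p under 0.05 in the quasi-binomial test. The chains that carry the signal had low spans. Tyrobp, which encodes DAP12, had 26.5% and 48.8% in FGR, against 30% and 43.7% in control. Hcst, which encodes DAP10, had 21.8% and 36.1% in FGR, against 16.2% and 33.7% in control. Fcer1g, the Fc receptor gamma chain, had 24.7% and 48.5% in FGR, against 34.1% and 20.2% in control. Each of the 3 was in every library below the lowest mean of the 64 receptor genes. Tyrobp and Hcst both lie on chromosome 7, and whether their extended spans share CpGs was not examined. They may therefore not be separate observations. Of 25 related lectins and Siglecs with other symbols 14 were lower in FGR, with a median of -0.76 points, and of 22 genes of sialic acid supply and transfer 14 were lower, with a median of -0.81 points. Of 8 NKG2D ligand genes 5 were measured and 2 were lower. In these 3 lists 1, 1 and 0 genes had an unadjusted p under 0.05, and 0 were called. The smallest p were those of St8sia4, a polysialyltransferase (77.9% and 66.1% in FGR, 82.5% and 84.3% in control, -11.4 points, adjusted p = 0.752, quasi-binomial test), Mrc2, a collagen uptake receptor (78.6% and 80.2% in FGR, 85.7% and 89.8% in control, -8.35 points, adjusted p = 0.752), and Cd209f (77.2% and 64.3% in FGR, 84.9% and 80.5% in control, -11.9 points, adjusted p = 0.790). All 3 had both FGR libraries below both control libraries, as had 26.2% of all genes. The choice by smallest p favours such genes.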

How the data were processed

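Whole-genome bisulfite libraries of hippocampal microglia, 2 FGR and 2 control, were grouped by their labels. Per the submitters' processing notes, Trim Galore 0.6.5, Bismark (version not given in the sources used here) and methylKit 1.28.0 were used with mm10. The deposited tables give, per the file headers, a coverage count per cytosine and the percent of reads methylated and unmethylated, with at least 5 reads. Percent times coverage came out whole, within 0.02 reads, for 100% of values. Such tables omit thinly covered CpGs, so each library lists other CpGs, and a gene's level depends on which were listed.

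Strands were summed per CpG, and the 0.1% of CpGs with the highest coverage in each library were left out. Regions needed 3 CpGs and 10 reads in every library. A region's level is methylated over all reads. Start windows used the start and strand of the RefSeq promoter table. For some genes, among them Siglece, Klre1, Clec12b and Clec18a, this start lies well inside the gene span. FGR and control were compared by a two-sided quasi-binomial test with overdispersion moderated by limma 3.58.1 squeezeVar (R 4.3.3), Benjamini-Hochberg adjustment over each whole table, and calls at an adjusted p under 0.05 and 10 points. The moderated overdispersion was not allowed below that of plain binomial counts. The prior overdispersion came from regions with a pooled level of 10 to 90% and an overdispersion above 0. The test had been planned with all regions, but on simulated data that prior recovered no changed tile, start window or CpG, so the prior used was chosen after seeing the data and the planned one is given as an alternative. The final simulation was scored with the chosen prior alone, so that failure was not repeated there. On the real libraries the planned prior put 27582 tiles, 707 start windows and 59 single CpGs at an unadjusted p under 0.05. The chosen prior put 24899, 558 and 924 there. Intervals are 95%, use the overdispersion of the same model and are centred on the printed difference, that of the group means of library levels. The test itself compares reads pooled per group, so deeper libraries weigh more in it. An interval and its p can therefore disagree. PCR reads without molecular identifiers are not independent molecules, so read counts can overstate precision.

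Genes, lists and roles were chosen with earlier results of these data known. Text names the genes with the smallest p in each direction, the lowest and highest levels, and the extremes of each role. The markers and pathway genes come from lists of textbook genes. Alternatives were shared CpGs, coverage, flank and CpG minimums, limma on log2 ratios with 0.5 added, equal weighting of CpGs, a replicate block and leaving out each library. Tables were read with Python 3.11.15, numpy 2.4.6, pandas 2.3.3 and scipy 1.17.1, and drawn with matplotlib 3.10.9.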

Additional observations from a re-analysis of the deposited data

How the results depend on the processing

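No gene, tile, start window or CpG of these genes was called under any alternative run. Of 326 alternative values of the named items 315 kept their direction and 11 turned. Limma on log ratios, the replicate block, the other priors and higher CpG minimums leave the level differences unchanged. No direction could turn there, so the 315 overstate how stable the directions are. On CpGs listed in all 4 libraries the differences were 5.67 points for Clec3b, 4.70 for Clec5a, 0.026 for Clec1b, -2.73 for Klrc3 and -3.42 for Siglecg, the median over 63 genes was 0.026 points, 2 spans and 1 start window of all genes were called, and 6 of 12 start windows were lower in FGR. With CpGs of 10 or more reads Siglecg had -1.70 points, and without flanks Clec11a had -9.12 points and the median was -0.14. Leaving out a library moved that median between -0.30 and -1.33 points. Without control replicate 1, Klrc3 had -1.74 and Siglecg -1.20 points, and the Klra2 CpG ranged from -19.9 to 5.07 points over the libraries left out, with 3.41 without FGR replicate 2. The 28 called tiles of the genome fell to 1 on shared CpGs, 0 with 10 or more reads, 1 with 5 CpGs, 0 with limma and 1 with the prior from all regions, and were 166 with the prior also without near-zero overdispersion; the prior from all regions was the planned one, and the prior used and the one without near-zero overdispersion were chosen after seeing the data. Without 1 library they numbered 1333 to 1519. With a replicate block 1 tile and 0 spans were called; replicate numbers do not pair these libraries by their labels, and the correlation of replicate differences between groups was 0.02 across spans. The causes were not tested. Of the listed CpGs of these genes 9.07% were shared by all libraries, which limits what shared CpGs can show.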
